A study of Mus musculus with 7 samples.

Results

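The AMPA-type glutamate receptors and their auxiliary subunits were followed in RNA-seq libraries from mouse brain, 3 labelled noCRS and 4 labelled CRS. The set was fixed by gene symbol and held 10 of the 55367 genes in the deposited count table. It comprised 4 pore subunit genes (Gria1 to Gria4) and 6 auxiliary subunit genes (Cacng2, Cacng3, Cacng4, Cacng8, Cnih2 and Cnih3). All mice were C57BL/6J at P90 (per the labels), and the source of the RNA is given as medial prefrontal neurons with projections into the lateral habenula. The single difference between the groups in the labels is the treatment, CRS or noCRS, under a series title on chronic stress and depression. How the neurons were marked and collected, the sex of the mice and whether each library is a separate animal are not given in the sources used here, so the tests measure the spread between these libraries, which may be technical.

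AMPA receptors are tetrameric cation channels that carry most fast excitatory transmission in the cortex. Their pore is built from the subunits GluA1 to GluA4, the products of Gria1 to Gria4. GluA2, after RNA editing of its pore loop, makes the channel nearly impermeable to calcium. Auxiliary subunits sit around the pore. The transmembrane AMPA receptor regulatory proteins (TARPs), here Cacng2, Cacng3, Cacng4 and Cacng8, carry receptors to synapses and slow channel closing, and the cornichon homologues Cnih2 and Cnih3 promote export from the endoplasmic reticulum and also slow channel closing. Glial cells, oligodendrocyte precursors among them, transcribe some of these genes as well.

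Promoter sequences are shown for the member with 0 counts in all noCRS libraries (Cacng2), for the most abundant pore subunit (Gria2) and for the pore subunit whose fold change was negative (Gria4). In the set of RefSeq promoters used (GRCm38.p6), 7 of the 10 members were matched by gene symbol, and Gria1, Gria3 and Cacng4 were not. Each promoter runs from 250 bases before to 50 bases after the RefSeq start, 5′ to 3′ on the strand of the gene. Capitals mark matches on either strand to TGANTCA (bound by AP-1, the Fos and Jun dimer), TGACGTCA (the cyclic AMP response element), GCGNGGGCG (bound by EGR factors) or GCTGTCC and GGTGCT with 2 bases between them (the core of the RE1 element, bound by the repressor REST). The motifs were chosen with the data and these sequences in view, and they do not overlap each other here.
Cacng2, chr15:78119231-78119530, minus strand: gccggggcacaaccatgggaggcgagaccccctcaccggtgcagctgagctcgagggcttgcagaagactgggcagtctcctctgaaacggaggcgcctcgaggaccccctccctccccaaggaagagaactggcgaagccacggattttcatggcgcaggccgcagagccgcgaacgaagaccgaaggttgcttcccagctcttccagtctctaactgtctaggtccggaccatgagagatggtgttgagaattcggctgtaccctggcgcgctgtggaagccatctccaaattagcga
Gria2, chr3:80802786-80803085, minus strand: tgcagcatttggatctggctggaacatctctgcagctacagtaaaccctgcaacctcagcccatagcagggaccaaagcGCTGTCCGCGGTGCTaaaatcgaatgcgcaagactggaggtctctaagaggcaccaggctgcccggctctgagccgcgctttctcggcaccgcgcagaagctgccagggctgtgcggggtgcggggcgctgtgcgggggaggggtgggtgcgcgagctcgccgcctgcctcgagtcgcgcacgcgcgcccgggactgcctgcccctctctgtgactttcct
Gria4, chr9:4796185-4796484, minus strand: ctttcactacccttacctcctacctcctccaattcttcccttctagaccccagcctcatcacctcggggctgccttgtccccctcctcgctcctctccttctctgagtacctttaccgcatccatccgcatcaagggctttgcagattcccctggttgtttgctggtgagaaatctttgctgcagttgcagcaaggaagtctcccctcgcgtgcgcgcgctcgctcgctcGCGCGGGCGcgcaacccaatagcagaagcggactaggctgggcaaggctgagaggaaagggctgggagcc
The Gria2 window held 1 RE1 core, which was present in 10 of 32851 promoters of the same length (0.03%). The Gria4 window held 1 EGR match, a motif found in 5.55% of promoters. The window of Cacng2 held none of the 4 motifs. TGANTCA occurred in 7.81% and TGACGTCA in 1.79% of all promoters. The RefSeq start of Cacng2 lies 748 bases from the outermost start of the gene in the deposited table, while those of Gria2 and Gria4 coincide with it. A match describes letters in a window and says nothing about binding.

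Library totals ran from 28677703 to 39965667 counts, and values below are CPM, counts scaled to the library's size after TMM normalisation. A level of 3 counts, the upper limit that a count of 0 allows, corresponded to 0.0724 to 0.0990 CPM per library, for counting error alone. CRS was tested over noCRS by edgeR's quasi-likelihood test on 17833 genes, and p-values were adjusted over all of them (Benjamini-Hochberg, threshold 0.05). The biological coefficient of variation was 0.919. Markers that check the labelled cell type differed between the groups. The 8 excitatory cortical neuron markers summed to 20.1 to 39.9 CPM in the noCRS libraries, against 496 to 747 CPM in the CRS libraries. Of the 8, 3 rose, where 2.07% of all tested genes did. Slc17a7, the glutamate transporter that defines these neurons, averaged 0.201 CPM (noCRS) and 10.1 CPM (CRS). It was not among those 3 (edgeR adjusted p = 0.188), and its noCRS counts all lay in noCRS replicate 1. The 8 oligodendrocyte precursor markers summed to 1968 to 2323 CPM in the noCRS libraries, against 1056 to 1473 CPM in the CRS libraries. Of these 8, 5 fell, where 0.230% of all tested genes did. Pdgfra, the most abundant of the 8, overlapped between the groups. It averaged 911 CPM in noCRS and 764 CPM in CRS (edgeR adjusted p = 0.823). Oligodendrocyte markers (6 genes) summed to 31265 to 36150 CPM in noCRS and 25714 to 50553 CPM in CRS. In bulk samples, fewer cells of a type and less RNA per cell cannot be told apart.

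All 10 members passed the filter on low counts. Cacng3 rose, and no other member passed the threshold in the 7-library edgeR test: 1 of 10 was higher, where 2.07% of all tested genes were, and 0 of 10 were lower, where 0.230% were. At an unadjusted edgeR p below 0.05, 4 members were higher (Gria1, Gria2, Cacng2 and Cacng3) and 1 lower (Cacng4). Of all 17833 tested genes, 1725 were higher and 697 lower at that level. DESeq2 called 2 members higher (Cacng3 and Cacng2) and 1 lower (Cacng4), against 1221 and 410 of 25636 genes. Limma-voom called 1 member higher (Cacng2) and 1 lower (Cacng4), against 522 and 117 of 17833 genes. The CRS libraries all lay above the noCRS libraries for 5 members (Gria1, Gria2, Cacng2, Cacng3 and Cnih3), a pattern shown by 10.1% of tested genes. The reverse held for Cacng4, and for 6.74% of tested genes. The median log2 fold change was 0.33 over the pore subunits and 1.79 over the auxiliary subunits, against -0.02 over all tested genes. Over the 4 auxiliary subunits other than Cacng2 and Cacng3, the 2 with at most 3 counts in noCRS, it was -0.17.

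**Figure D1:**
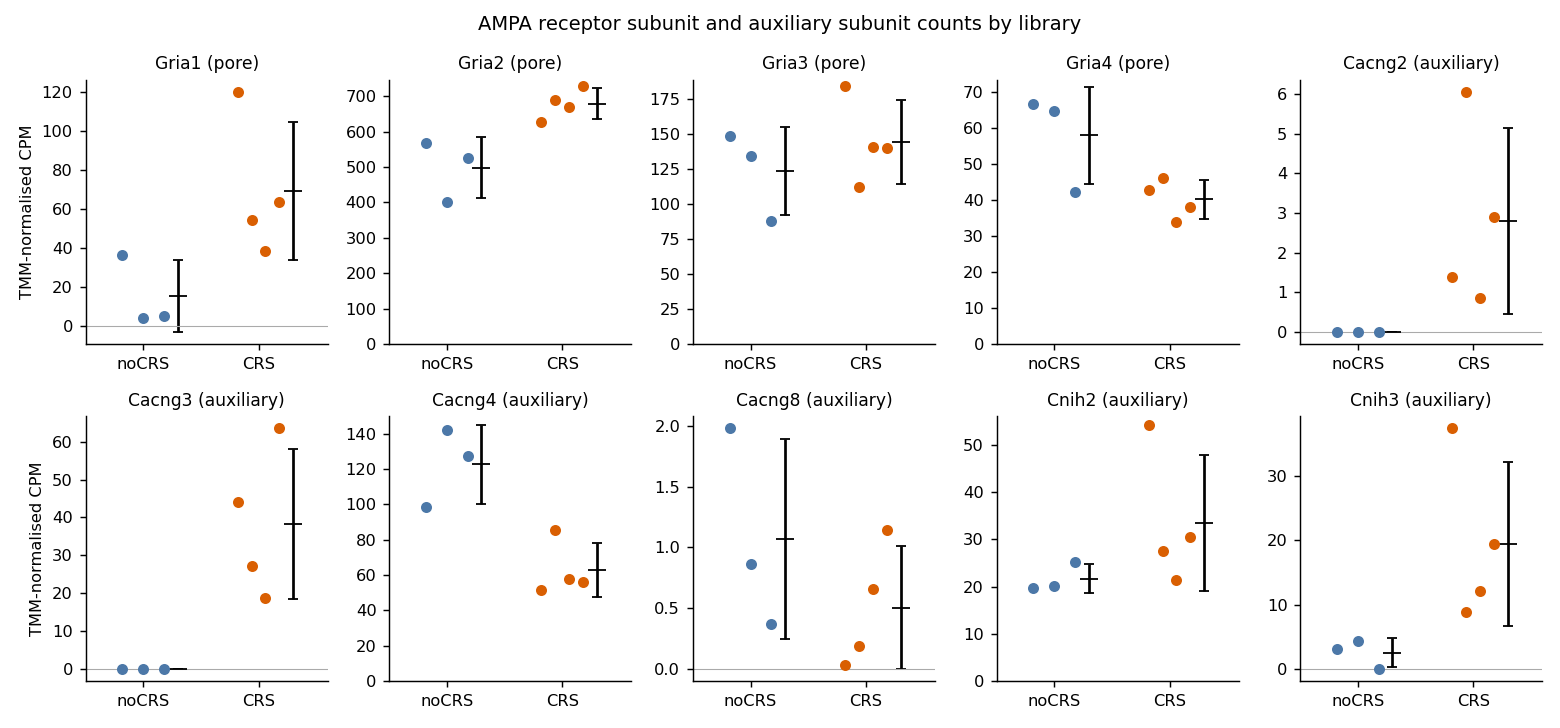
TMM-normalised CPM of the 10 members (vertical axes, linear, each with its own range), with 1 point per library, and the mean and SD of each group as a bar beside the points (noCRS n = 3, CRS n = 4). Cacng3 lies at 0 to 0.0724 CPM in noCRS and 18.7 to 63.5 CPM in CRS, while Cacng4 is the member whose noCRS libraries all lie above the CRS libraries.

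Gria2 encodes the subunit that sets calcium permeability and was the most abundant pore subunit in every library. It measured 568, 401 and 525 CPM in noCRS replicates 1 to 3 and 626, 689, 670 and 730 CPM in CRS replicates 1 to 4. The groups did not overlap, though the gap between the highest noCRS and the lowest CRS library was smaller than the range within either group. The means were 498 ± 86.7 CPM (SD, n = 3) and 679 ± 43.0 CPM (SD, n = 4), a 1.36-fold difference that missed the threshold (log2 fold change 0.45 ± 0.16 SE, edgeR adjusted p = 0.230). Across the 14 alternative settings its adjusted p ran from 0.0691 to 0.510.

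Gria1 encodes the subunit whose insertion at synapses is best known from long-term potentiation. It measured 36.7, 4.11 and 5.45 CPM in noCRS and 120, 54.4, 38.7 and 63.8 CPM in CRS. All CRS libraries were above all noCRS libraries, but noCRS replicate 1 lay just below CRS replicate 3. The means were 15.4 ± 18.4 CPM (SD, n = 3) and 69.2 ± 35.4 CPM (SD, n = 4), a 4.49-fold difference short of the threshold (log2 fold change 2.16 ± 0.81 SE, edgeR adjusted p = 0.262). Without noCRS replicate 1, the mean of the other noCRS libraries was 4.78 CPM, and edgeR called Gria1 higher (log2 fold change 3.87, adjusted p = 0.0360). In the other settings the edgeR, DESeq2 or limma-voom adjusted p stayed above the threshold, up to 0.524.

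Gria3, an X-linked pore subunit, measured 148, 134 and 88.1 CPM in noCRS and 184, 112, 141 and 140 CPM in CRS. The groups overlapped, and the difference was smaller than the spread within either group (log2 fold change 0.22 ± 0.24 SE, edgeR adjusted p = 0.831). Gria4 encodes a subunit of fast-gating receptors, typical of interneurons and also transcribed in oligodendrocyte precursors. It measured 66.7, 64.8 and 42.4 CPM in noCRS and 42.8, 46.0, 33.8 and 38.1 CPM in CRS. The groups overlapped through noCRS replicate 3, which lay among the CRS libraries, and the log2 fold change was -0.53 ± 0.25 SE (edgeR adjusted p = 0.414).

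Because exon lengths differ, the subunits were compared with each other as CPM per kilobase of annotated exon. In noCRS the mean pore subunit levels were 32.0 ± 5.57 for Gria2, 12.5 ± 3.20 for Gria3, 9.19 ± 2.15 for Gria4 and 2.55 ± 3.05 CPM per kilobase for Gria1 (SD, n = 3). In CRS they were 43.6 ± 2.76 for Gria2, 14.6 ± 3.01 for Gria3, 11.5 ± 5.86 for Gria1 and 6.37 ± 0.85 CPM per kilobase for Gria4 (SD, n = 4). The ranges of Gria3 and Gria4 overlapped in noCRS, and those of Gria3 and Gria1, and of Gria1 and Gria4, overlapped in CRS. Within each library the order of Gria1 and Gria4 differed between the groups. Per kilobase, Gria1 was 0.574, 0.0662 and 0.134 times Gria4 in noCRS and 2.92, 1.24, 1.19 and 1.75 times Gria4 in CRS.

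As a share of the summed pore subunit level per kilobase, Gria2 made up 53.5%, 51.2% and 67.1% in noCRS and 47.1%, 61.6%, 62.4% and 60.4% in CRS. The mean Gria2 share was 57.3% in noCRS and 57.8% in CRS, a difference of 0.57 percentage points that took either sign when single libraries were left out (-2.47 to 5.47 points). Gria1 made up 1.35% to 8.90% in noCRS and 9.26% to 23.2% in CRS. Gria4 made up 13.4% to 20.4% in noCRS and 7.76% to 10.1% in CRS. Gria3 overlapped, at 17.8% to 27.1% in noCRS and 15.8% to 21.8% in CRS. These shares describe chosen genes and carry no test, and counts per gene resolve neither the flip and flop splice forms nor RNA editing of GluA2.

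**Figure D2:**
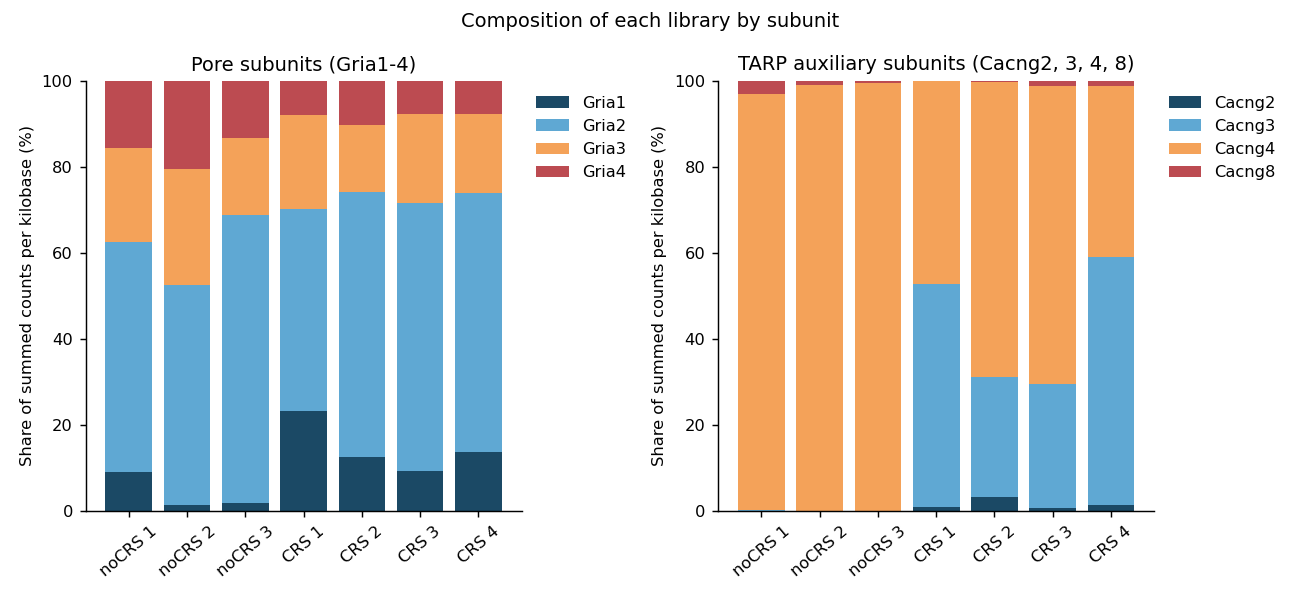
Stacked bars give each subunit's share (percent, vertical axis) of the summed counts per kilobase of exon in each of the 7 libraries (horizontal axis), for the 4 pore subunits on the left and the 4 TARPs on the right. Cacng4 makes up 96.9% to 99.6% of the TARP level in noCRS and 39.7% to 69.3% in CRS, where Cacng3 makes up 28.0% to 57.8%, while the Gria2 share overlaps between the groups.

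Among the auxiliary subunits, Cacng3, a TARP of cortical neurons (chromosome 7, 122670492 to 122769393, plus strand, GRCm38), had 3, 0 and 0 counts in noCRS and 1459, 868, 565 and 2438 counts in CRS. These were 0.0724, 0 and 0 CPM in noCRS and 44.1, 27.1, 18.7 and 63.5 CPM in CRS. The CRS libraries spanned a wide range, and the lowest of them was still far above the noCRS libraries. Over the groups the ratio of pooled CPM was 1395 (95% counting interval 477 to 6765), which covers counting error and not the spread between libraries. The 3 counts of noCRS replicate 1 were all that noCRS held. Without that library, the pooled CRS level of Cacng3 was 844 times a floor of 3 counts over the remaining noCRS libraries. This bound too covers counting error in noCRS and not the spread between the CRS libraries. The rise passed edgeR's test (adjusted p = 0.00466) and did so without any single library (adjusted p up to 0.0231). It also passed DESeq2's test (adjusted p = 3.38e-21). It did not pass limma-voom with quality weights (adjusted p = 0.0688) or edgeR with the replicate number as a block (adjusted p = 0.0744). The exons of Cacng3 overlap no other gene of the table.

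Cacng2, or stargazin, the TARP whose loss causes absence seizures and ataxia in the stargazer mouse, had 0 counts in all 3 noCRS libraries and 46, 194, 26 and 111 counts in CRS. The CRS values were 1.39, 6.05, 0.858 and 2.89 CPM, and every CRS library was above the noCRS libraries. Pooled over CRS, Cacng2 was at 98.7 times the floor of 3 counts over the noCRS group (0.0286 CPM). This bound covers counting error in noCRS and not the spread between the CRS libraries. Cacng2 missed the threshold by edgeR (adjusted p = 0.0668, and 0.0636 to 0.434 over the edgeR alternatives). It passed by DESeq2 (adjusted p = 9.90e-06) and limma-voom (adjusted p = 0.0449). The CRS mean was 2.80 ± 2.33 CPM (SD, n = 4) and 1.71 CPM without CRS replicate 2. Of its exon length, 5.86% is shared with a gene on the other strand, and the reads of the pair cannot be told apart.

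Cacng4, a TARP that is also transcribed in oligodendrocyte precursors, was the most abundant auxiliary subunit in noCRS. It measured 98.4, 142 and 127 CPM in noCRS and 51.7, 85.3, 57.8 and 56.1 CPM in CRS. All noCRS libraries were above all CRS libraries. The means of 123 ± 22.3 CPM (SD, n = 3) and 62.7 ± 15.2 CPM (SD, n = 4) differed 1.95-fold, lower in CRS, and edgeR's test with all libraries missed the threshold (log2 fold change -0.97 ± 0.23 SE, adjusted p = 0.0844). Cacng4 was called lower by DESeq2 (adjusted p = 0.00339), by limma-voom (adjusted p = 0.0208) and by edgeR without CRS replicate 2 (adjusted p = 0.0361), and its edgeR adjusted p reached 0.286 without noCRS replicate 2.

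Cacng8, the TARP best known from hippocampal neurons, was close to the detection limit in both groups. It had 82, 27 and 12 counts in noCRS and 1, 6, 20 and 44 counts in CRS, with overlapping groups (edgeR adjusted p = 0.861). Its noCRS mean of 1.07 CPM was 0.618 CPM without noCRS replicate 1, and its CRS mean of 0.506 CPM was 0.293 CPM without CRS replicate 4.

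The cornichon Cnih2 measured 19.7, 20.0 and 25.2 CPM in noCRS and 54.3, 27.5, 21.3 and 30.6 CPM in CRS. CRS replicate 3 lay within the noCRS range, and the difference missed the threshold (log2 fold change 0.63 ± 0.38 SE, edgeR adjusted p = 0.589). Cnih3 had 130, 137 and 0 counts in noCRS and 1239, 285, 367 and 743 counts in CRS. In CPM these were 3.14, 4.40 and 0 in noCRS and 37.4, 8.89, 12.1 and 19.4 in CRS, with no overlap. The 7.74-fold difference of its means missed the threshold (log2 fold change 2.95 ± 1.39 SE, edgeR adjusted p = 0.415). Its noCRS mean of 2.51 CPM was 1.57 CPM without noCRS replicate 2.

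Per kilobase of exon the mean levels of the auxiliary subunits changed order between the groups. In noCRS the means were 34.3 ± 6.24 for Cacng4, 15.8 ± 2.25 for Cnih2, 0.913 ± 0.823 for Cnih3 and 0.457 ± 0.351 CPM per kilobase for Cacng8 (SD, n = 3), with Cacng3 at 0.00869 and Cacng2 at 0. In CRS they were 24.4 ± 10.5 for Cnih2, 17.5 ± 4.26 for Cacng4, 13.8 ± 7.15 for Cacng3 and 7.07 ± 4.64 CPM per kilobase for Cnih3 (SD, n = 4), followed by Cacng2 at 0.508 ± 0.424 and Cacng8 at 0.216 ± 0.215. The ranges of Cnih2 and Cacng4, of Cacng4 and Cacng3, and of Cacng3 and Cnih3 overlapped in CRS. The highest auxiliary subunit was Cnih2 in CRS replicate 1 (39.7 CPM per kilobase) and Cacng3 in replicate 4 (22.9). Cacng4 was still the highest in CRS replicate 2 (23.9, Cnih2 at 20.1) and replicate 3 (16.2, Cnih2 at 15.6). In noCRS the ranges of Cacng4 and Cnih2 were apart, as were those of Cnih2 and Cnih3.

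The mix of TARPs differed between the groups in this description. Cacng3 made up 0.0918%, 0% and 0% of the summed TARP level per kilobase in noCRS and 51.8%, 28.0%, 28.8% and 57.8% in CRS. Cacng4 made up 96.9%, 99.1% and 99.6% in noCRS and 47.3%, 68.6%, 69.3% and 39.7% in CRS. Cacng2 reached at most 3.16% and Cacng8 at most 2.97% in any library. These shares depend on which TARPs are summed. With Cacng5 and Cacng7 in the sum, 2 further genes of the family that are no members, Cacng4 made up 85.3%, 83.1% and 83.7% in noCRS and 44.5%, 61.1%, 54.0% and 36.7% in CRS, and Cacng5 reached 15.9% in noCRS and 18.7% in CRS. Cacng3 then made up 22.5% to 53.4% in CRS. The ratio of the summed auxiliary to the summed pore level overlapped between the groups, at 64.3, 112 and 108 per 100 in noCRS and 98.0, 80.8, 62.7 and 88.7 per 100 in CRS.

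On the log2 scale, the difference between the 2 kinds of subunit rested on Cacng2 and Cacng3. The mean log2 CPM of the 4 pore subunits was 6.91, 5.95 and 5.84 in noCRS and 7.29, 6.88, 6.72 and 6.97 in CRS, with overlapping groups and a difference in means of 0.73. That of the 6 auxiliary subunits was 1.10, 0.89 and -0.31 in noCRS and 3.20, 3.29, 2.92 and 3.81 in CRS, with no overlap and a difference of 2.74. Auxiliary minus pore was -5.81, -5.06 and -6.15 in noCRS and -4.09, -3.60, -3.80 and -3.17 in CRS. The group difference in this quantity was 2.01 with a prior count of 2 and 2.66 with a prior count of 0.5, since Cacng2 and Cacng3, at or near 0 counts in noCRS, enter it through that prior count. Without these 2 genes it was -0.13, and the mean log2 CPM of the other 4 auxiliary subunits overlapped between the groups, at 3.41, 3.38 and 1.58 in noCRS and 3.30, 3.08, 3.35 and 3.82 in CRS, a difference of 0.60. On the per-kilobase scale, the summed pore level was 68.2, 50.4 and 50.3 in noCRS and 85.6, 71.9, 69.1 and 77.8 in CRS, with no overlap, while the summed auxiliary level overlapped (43.9 to 56.4 in noCRS, 43.3 to 83.9 in CRS).

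**Figure D3:**
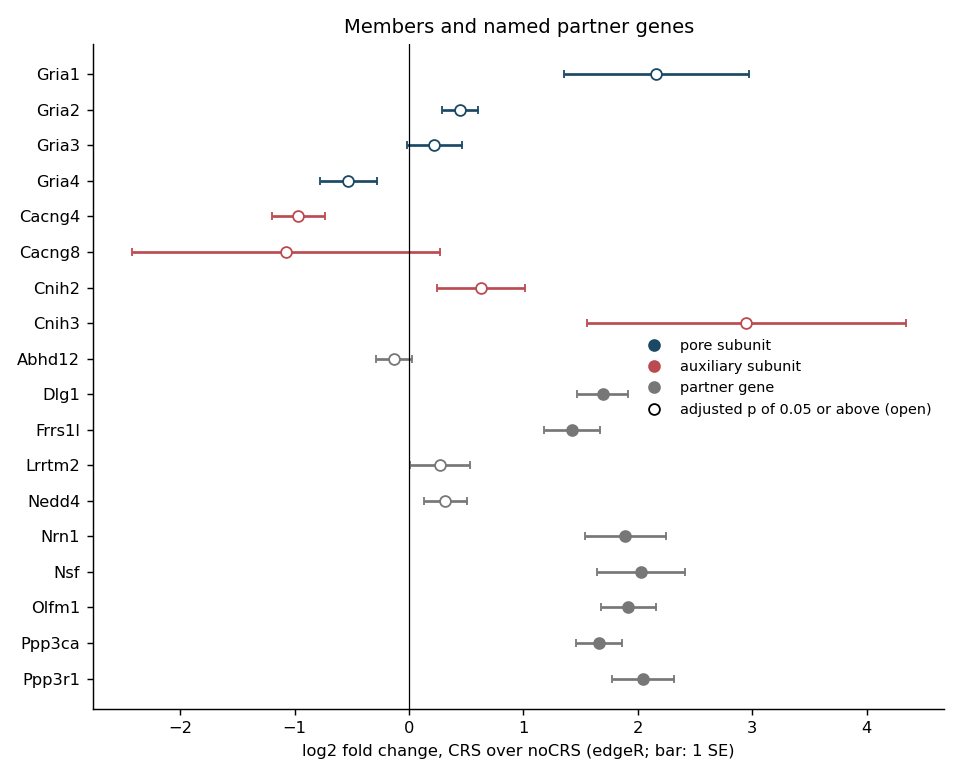
Log2 fold change of CRS over noCRS with 1 SE (horizontal axis) for 8 members and 10 partner genes (vertical axis), filled where the edgeR adjusted p is below 0.05. Cacng2 and Cacng3 are left out, since fitted values against 0 to 3 noCRS counts depend on the prior count. The 7 filled points are partner genes, and the 8 members plotted are open.

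Other proteins of the AMPA receptor pathway were taken from a list of 54 genes in 6 roles, 53 of which were tested. Of these, 8 rose (2.07% of all tested genes did) and edgeR called 0 lower (0.230% of all tested genes). At an unadjusted edgeR p below 0.05, 2 were lower (697 of all 17833 tested genes were). DESeq2 and limma-voom each called 0 lower. All CRS libraries lay above all noCRS libraries for 14 of the 53 (10.1% of all tested genes), and the reverse held for 3 (6.74%). The median log2 fold change was 0.38. The count of risen genes was 4, 3 and 5 without noCRS replicates 1, 2 and 3, 4 without CRS replicate 1, 3 or 4, and 9 without CRS replicate 2. Scaled by library totals alone it was 5, and Nrn1 and Nsf were among those that no longer passed. Grip2 was below the filter on low counts.

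Of 18 other constituents of native receptor complexes, 2 rose. Olfm1 (noelin), a secreted protein that binds AMPA receptors, measured 101, 65.6 and 102 CPM in noCRS and 439, 286, 282 and 342 CPM in CRS (log2 fold change 1.92 ± 0.24 SE, edgeR adjusted p = 0.00786, up to 0.0356 without any single library). Nrn1 (neuritin), a lipid-anchored surface protein, measured 12.2, 17.0 and 23.8 CPM in noCRS and 83.6, 54.3, 44.2 and 79.9 CPM in CRS. Its edgeR adjusted p was 0.0340, a call that leaving out any library except CRS replicate 2 ended (up to 0.145), and 22.3% of its exon length is shared with Fars2 on the other strand. The Shisa auxiliary subunits Shisa6, Shisa7, Shisa8 and Shisa9, and Gsg1l, did not pass (edgeR adjusted p 0.481 to 0.876). Vwc2l, another constituent, had 0 counts in every noCRS library, averaged 5.66 ± 4.34 CPM (SD, n = 4) over CRS and overlapped between the groups (edgeR adjusted p = 0.166).

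Of 6 genes of receptor assembly in the endoplasmic reticulum, 1 rose. Frrs1l, an assembly factor that binds GluA subunits before auxiliary subunits join, measured 72.8, 49.2 and 61.3 CPM in noCRS and 191, 112, 162 and 191 CPM in CRS. Its edgeR adjusted p was 0.0272, a call that did not hold when any library except CRS replicate 2 was left out (up to 0.125). Abhd12, the most abundant gene of this role, measured 279 ± 26.8 CPM (SD, n = 3) and 255 ± 30.6 CPM (SD, n = 4) (edgeR adjusted p = 0.854). Cpt1c, which partners with GluA1 in the endoplasmic reticulum, measured 91.6 ± 16.5 CPM (SD, n = 3) and 54.9 ± 27.3 CPM (SD, n = 4) (edgeR adjusted p = 0.514).

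Of 11 tested genes of trafficking and anchoring, 2 rose. Dlg1 (SAP97), a scaffold that binds the GluA1 tail, measured 54.0, 46.7 and 37.1 CPM in noCRS and 117, 167, 173 and 138 CPM in CRS (log2 fold change 1.69 ± 0.22 SE, edgeR adjusted p = 0.00944, 0.0501 without noCRS replicate 2). Nsf, an ATPase that binds GluA2 and keeps it at the surface, measured 80.4, 111 and 80.4 CPM in noCRS and 512, 163, 476 and 329 CPM in CRS. Its edgeR adjusted p was 0.0354, and the call ended without any library except CRS replicate 2 (up to 0.152). The GluA2-binding proteins Pick1 (edgeR adjusted p = 0.876) and Grip1 (0.743) and the scaffold Dlg4 (0.867) did not pass.

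Among the kinases and phosphatases, Ppp3ca and Ppp3r1 rose. They encode the catalytic and the regulatory subunit of calcineurin, the phosphatase that acts on GluA1 in long-term depression. Ppp3ca measured 133 ± 27.3 CPM (SD, n = 3) and 420 ± 71.1 CPM (SD, n = 4), a 3.16-fold rise (edgeR adjusted p = 0.00753). Ppp3r1 measured 149 ± 33.6 CPM (SD, n = 3) and 615 ± 161 CPM (SD, n = 4), a 4.13-fold rise (edgeR adjusted p = 0.00928), and shares 14.3% of its exon length with Wdr92 on the same strand. The calls of Ppp3ca and Ppp3r1 held whichever library was left out (edgeR adjusted p at most 0.0493). In the same role, Ppp3cb (edgeR adjusted p = 0.0986), Camk2b (0.186), Camk2a (0.589) and Prkca (0.779) did not pass.

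In the 2 remaining roles edgeR called 0 of 6 genes of extracellular clustering and 0 of 5 genes of RNA editing and ubiquitin turnover, with 1 and 2 at an unadjusted p below 0.05. DESeq2 called 1 and 0 genes of these roles, and limma-voom 0 and 0. Nptx1, a pentraxin that clusters AMPA receptors, measured 2.15, 7.38 and 2.46 CPM in noCRS and 20.0, 18.3, 38.7 and 37.2 CPM in CRS, with no overlap (edgeR adjusted p = 0.0618). Lrrtm2, the most abundant of that role, measured 130 ± 8.83 CPM (SD, n = 3) and 157 ± 49.4 CPM (SD, n = 4) (edgeR adjusted p = 0.800). Adarb1, the enzyme that edits the GluA2 pore loop, measured 4.30 ± 7.45 CPM (SD, n = 3), all of it in noCRS replicate 2, and 5.18 ± 3.09 CPM (SD, n = 4) (edgeR adjusted p = 0.983). Nedd4, a ubiquitin ligase of GluA1, measured 179 ± 31.8 CPM (SD, n = 3) and 223 ± 33.2 CPM (SD, n = 4) (edgeR adjusted p = 0.569).

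Summed excitatory, pan-neuronal and interneuron markers were higher in every CRS library than in any noCRS library. Those of oligodendrocyte precursors were lower in every CRS library. Among the TARPs, Cacng2 and Cacng3 were higher in CRS and Cacng4 was lower, while Cacng8 overlapped between the groups. Cacng3 was highest in CRS replicate 4 and lowest in CRS replicate 3 among the CRS libraries, as was the summed level of the 8 excitatory neuron markers (747 and 496 CPM). All noCRS libraries, with marker sums of 39.9, 20.9 and 20.1 CPM, had at most 3 counts of Cacng3, and every marker of that list had counts in noCRS. The 6 pan-neuronal markers summed to 354 to 429 CPM in noCRS against 2849 to 4059 CPM in CRS. Of these, 3 rose (Snap25, Syt1 and Stmn2), where 2.07% of all tested genes did, and none was at 0 throughout either group. Snap25 alone averaged 158 CPM in noCRS and 2747 CPM in CRS. Tubb3 and Map2 overlapped between the groups, and Map2 averaged 186 CPM in noCRS and 175 CPM in CRS (edgeR adjusted p = 0.945). The pan-neuronal and interneuron sums were highest in CRS replicate 2, where Cacng3 was not. Snap25 made up most of that pan-neuronal sum (3503 CPM). Syt1 (227 CPM), Stmn2 (126 CPM) and Tubb3 (20.9 CPM) were at their lowest CRS values in replicate 2. Among the CRS libraries, Rbfox3 was highest in replicate 4 and Map2 in replicate 3. Cacng4 was lower in the 4 CRS libraries, where the oligodendrocyte precursor markers summed to 1118, 1377, 1473 and 1056 CPM, than in the noCRS libraries, where they summed to 2226, 2323 and 1968 CPM. No marker of that list was at 0 throughout either group. Within CRS, Cacng4 was highest in replicate 2 (85.3 CPM), while the precursor marker sum was highest in replicate 3. Within noCRS, both were highest in replicate 2, but Cacng4 was lowest in replicate 1 (98.4 CPM) and the sum in replicate 3. Pdgfra, the most abundant marker in that sum, measured 1173, 849 and 712 CPM in noCRS replicates 1 to 3. Cspg4, C1ql1, Olig1, Olig2 and Matn4 were lowest in noCRS replicate 1, as Cacng4 was. Pdgfra, Sox10 and Gpr17 were lowest in noCRS replicate 3. Of the 7 interneuron markers, which bear on Gria4, 2 rose (Gad1 and Sst), where 2.07% of all tested genes did. The sum of the 7 was 34.6 to 50.5 CPM in noCRS against 162 to 682 CPM in CRS. Gad2, Pvalb and Lamp5 overlapped between the groups, and Slc32a1 had 0 counts in all noCRS libraries and 0, 0, 4 and 4 counts in CRS. The part of cell makeup in the differences of Cacng3, Cacng4 and the other members was not tested.

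**Figure D4:**
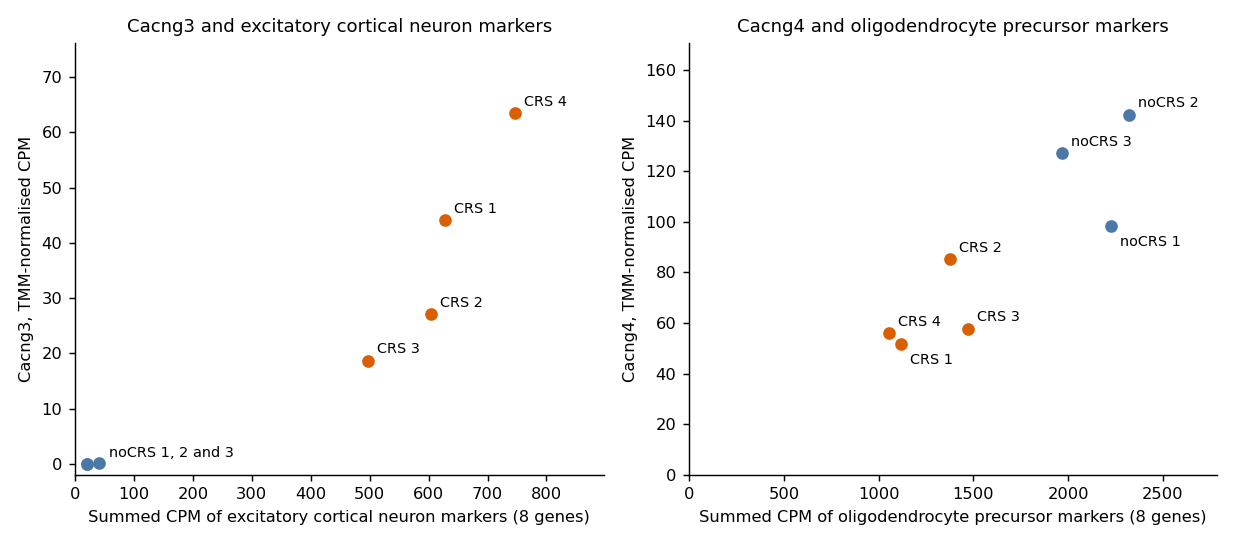
Each point is 1 library. The left panel plots Cacng3 (CPM, vertical axis) against the summed CPM of 8 excitatory cortical neuron markers (horizontal axis), and the right panel plots Cacng4 against the summed CPM of 8 oligodendrocyte precursor markers. The noCRS libraries lie at the origin end on the left, at 20.1 to 39.9 CPM of markers, and at the upper end on the right, at 1968 to 2323 CPM.

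The genes whose log2 CPM followed the most abundant member of each kind most closely over the 7 libraries were named as a description, with no test. For Gria2 these were Bnip3 (Pearson r = 0.989), Gm45507 (r = 0.983) and Ino80dos (r = 0.982). For Cacng4 they were Scrg1 (r = 0.994), Gm5113 (r = 0.976) and Serpine2 (r = 0.971), a secreted protease inhibitor. The 7 points share the group difference and the cell makeup of each library. Scrg1 averaged 376 CPM in noCRS, against 221 CPM in CRS. Serpine2 averaged 4640.4 and 2740.3 CPM in the same order.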

How the data were processed

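The table the authors deposited gives 1 raw whole-number count per gene and library for 55367 genes, beside exon positions and exon length. FastQC, featureCounts, HISAT, HISAT2 and DESeq2 are named without versions, and GRCm38 as the build, per the submitters' processing notes. The column names end like the output of another aligner, so the aligner was not settled. Per the labels' protocols the libraries were made with a transposase kit, which does not mark strand, and how reads with several alignments were counted is not given in the sources here.

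The test was edgeR's quasi-likelihood test (edgeR 4.0.16, R 4.3.3, TMM factors, default expression filter, 17833 genes, no covariate, threshold 0.05). SE was taken from the fold change and the F statistic. Log2 CPM used a prior count of 2. DESeq2 1.42.0, limma-voom (limma 3.58.1), other scalings and filters, the replicate number as a block and leaving out each library were alternatives. Counting intervals are exact at 95%. The script was tested on simulated data. Named genes were the 10 members, each called partner gene and the most abundant partner gene of each role. Among these, 1 called partner gene and 1 promoter are not reported here. Other genes were named after their values were seen. The members and lists were chosen with earlier results of these data known.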

Additional observations from a re-analysis of the deposited data

Results flagged for a closer look

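The CRS libraries were screened for a sample far from the other 3 of its group, by Dixon's ratio of gap to range at its 95% critical value, a screen that chance passes in about 1 in 20 groups. None of the 10 members was marked on CPM. The Gria2 share of the pore subunit level was 47.1% in CRS replicate 1 and 60.4% to 62.4% in the other CRS libraries. The Gria4 share was 10.1% in CRS replicate 2 and 7.76% to 7.94% in the others.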

How the results depend on the processing

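Of 139 member fold changes over 14 alternative settings, 131 kept direction and side of the threshold, 6 came to pass it, 2 no longer passed it and 0 changed direction. Genes called over the whole table numbered 410, and 1631 by DESeq2, 639 by limma-voom and 142 to 352 with 1 library left out. Members called higher numbered 2 by DESeq2 (2 auxiliary) and 1 to 2 with 1 library left out (pore subunits 0 to 1). Members called lower, all auxiliary, numbered 1 by DESeq2, 1 by limma-voom and 0 to 1 with 1 library left out. Partner genes called higher numbered 13 by DESeq2, 5 with library totals alone and 3 to 9 with 1 library left out. The difference in auxiliary minus pore log2 CPM was 2.66 with a prior count of 0.5. Without Cacng2 and Cacng3, an alternative chosen after seeing the data like the sum over 6 TARPs, it was -0.13, and the auxiliary difference was 0.60. The Gria4 share differed by -4.11 percentage points without division by exon length, against -8.02 with it. With library totals alone the median over all tested genes went from -0.02 to -0.17 (log2), and all 10 member directions stayed. The cause of these changes was not tested.

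Same-numbered libraries did not deviate together (correlations 0.0153, -0.0032 and 0.0228), and not every library correlated best with its own number. The labels do not state that the numbers pair the samples, and these correlations cannot decide it. With the replicate block the test called 12 genes, 0 members higher, 0 auxiliary subunits higher and 0 partner genes higher (Cacng3 adjusted p = 0.0744). Counts were low for Cacng8 and Cacng2, at under 7 CPM in every library, and for Cacng3 in noCRS.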

Other observations

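TARP genes lie side by side at 2 places in the genome. On chromosome 7 (GRCm38), Cacng7 (3332955 to 3368221) lies beside Cacng8 (3390683 to 3415648). Cacng7 measured 0.706 ± 1.22 CPM (SD, n = 3) in noCRS, all of it in replicate 2, and 1.15 ± 1.33 CPM (SD, n = 4) in CRS, 0.725 CPM without CRS replicate 3 (edgeR adjusted p = 0.957), and Cacng8 did not pass the threshold either. On chromosome 11, Cacng4 (107732357 to 107794557) and Cacng5 (107874605 to 107915055) are neighbours. Cacng5 measured 22.4 ± 6.52 CPM (SD, n = 3) and 13.5 ± 7.46 CPM (SD, n = 4) (edgeR adjusted p = 0.735). No test compared neighbours with other genes.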
